A study of Arabidopsis thaliana with 12 samples.

Results

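Plants carry protein-coding genes in 3 compartments, and those of the plastid and the mitochondrion are few but central to photosynthesis and respiration. Plastid genes encode subunits of both photosystems, the cytochrome b6f complex, the ATP synthase and the NDH complex, together with the large subunit of Rubisco and part of the plastid's own RNA polymerase and ribosome. They are read by that plastid-encoded polymerase and by a nucleus-encoded one. Mitochondrial genes encode subunits of the respiratory complexes, of the ATP synthase, of the cytochrome c maturation machinery and of the mitochondrial ribosome, and are read by nucleus-encoded polymerases. In both organelles transcript levels also depend strongly on RNA processing and stability, which nucleus-encoded RNA-binding proteins control.

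The transcripts of these 2 genomes were measured on ATH1 arrays in shoots of Arabidopsis seedlings 18 days old. Probe sets were taken if the platform's gene symbol was that of an organelle gene, or if the platform table or the study's tables gave a mitochondrial or plastid locus. They numbered 108 of 16764 probe sets, of which 76 were plastid (75 distinct genes, out of 78 plastid protein genes in RefSeq) and 32 were mitochondrial. Of the mitochondrial ones, 30 (24 distinct genes) were named by the platform table, and 2 were named only by the study's tables, whose rows were chosen by its own calls. These 2 are described apart. The plastid gene ccsA, whose symbol the rule does not cover, was not counted among the 76, and its log2 signal averaged 11.50 in ga1-3/brm-1, 11.89 in brm-1, 11.63 in ga1-3 and 11.95 in wild type.

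There were 4 genotypes with 3 arrays each, all in the Col-0 background: the ga1-3/brm-1 double mutant, brm-1, ga1-3 and wild type. The brm-1 mutant lacks BRM, the ATPase of a SWI/SNF chromatin remodelling complex. It is sterile, so homozygotes were picked by genotyping among the segregating progeny. The ga1-3 mutant is blocked at an early step of gibberellin (GA) biosynthesis, and seeds of the ga1-3 background had been imbibed in GA before sowing. Seedlings grew on agar medium with sucrose. The study describes the arrays of a genotype as biological replicates.

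The signal of the BRM probe set, which only the study's tables name, lay between 2.72 and 3.01 in the 6 arrays of ga1-3/brm-1 and brm-1, against 7.84 to 8.28 in the 6 arrays of ga1-3 and wild type, on the log2 scale. All arrays matched their labels in this respect, while GA1 had no named probe set. On the first component of the residuals, brm-1 replicate 3 stood apart from the other brm-1 arrays (37.8, against -20.0 and -17.8). Of 5 leaf markers, 3 had a name (LHCA1, GLDP1 and CA1, all through the study's tables), and their summed signal was 20008 to 20351 in ga1-3/brm-1, 20172 to 26847 in brm-1, 27582 to 29546 in ga1-3 and 31461 to 32153 in wild type. Every mutant array was thus below every wild-type array. These 3 markers were named through tables of genes that the study called changed, so their direction is not independent evidence. LHCA1, the brightest of them, differed by only -0.17 on the log2 scale in brm-1, which did not pass. Of 5 root markers, only PYK10 had a name, and its signal was 4650 to 6589 in ga1-3/brm-1, 784 to 1768 in brm-1, 2785 to 3661 in ga1-3 and 647 to 1309 in wild type. The part of a shifted tissue make-up in the results below was not tested. In whole shoots, more or fewer plastids or plastid-rich cells cannot be told apart from more or less RNA in each.

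Most plastid probe sets gave a strong signal. Their median log2 signal was 11.06 in ga1-3/brm-1, 11.44 in brm-1, 11.14 in ga1-3 and 11.27 in wild type, where the probe sets ranged between 2.38 and 15.03. The median of all 16764 probe sets was between 6.77 and 6.78. Only 6 plastid probe sets (ycf2, ndhB, rpoB, ndhF, rps14 and petD) were near background in all 4 genotypes, meaning that their mean lay below the 25th percentile of the table (4.58). Mitochondrial probe sets were far dimmer, with a wild-type median of 4.50 and a range of 2.02 to 9.80, and 14 of the 30 were near background in all genotypes. The labelling reaction is primed from poly(A) tails, which most organelle RNAs carry only transiently, and signals depend on each probe set's sequence, so these values do not rank transcripts by abundance.

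The first question was what the loss of BRM did to the organelle transcripts in plants with functional GA1. Many plastid transcripts rose in brm-1, and none fell. Of the 76 plastid probe sets, 20 (26.3%) were higher in brm-1 than in wild type and 0 were lower, at a limma adjusted p under 0.05 and a change of more than 1.5-fold. Among all probe sets, 7.09% were called higher and 7.58% lower. The log2 difference was positive for 68 of the 76, with a median of 0.38, against a median of 0.01 over all probe sets. In 45 of the 76 every brm-1 array exceeded every wild-type array, which was so for 20.4% of all probe sets. In 37 of the 76 the 3 brm-1 arrays were above all other 9 arrays, against 3.03% of all probe sets.

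**Figure D1:**
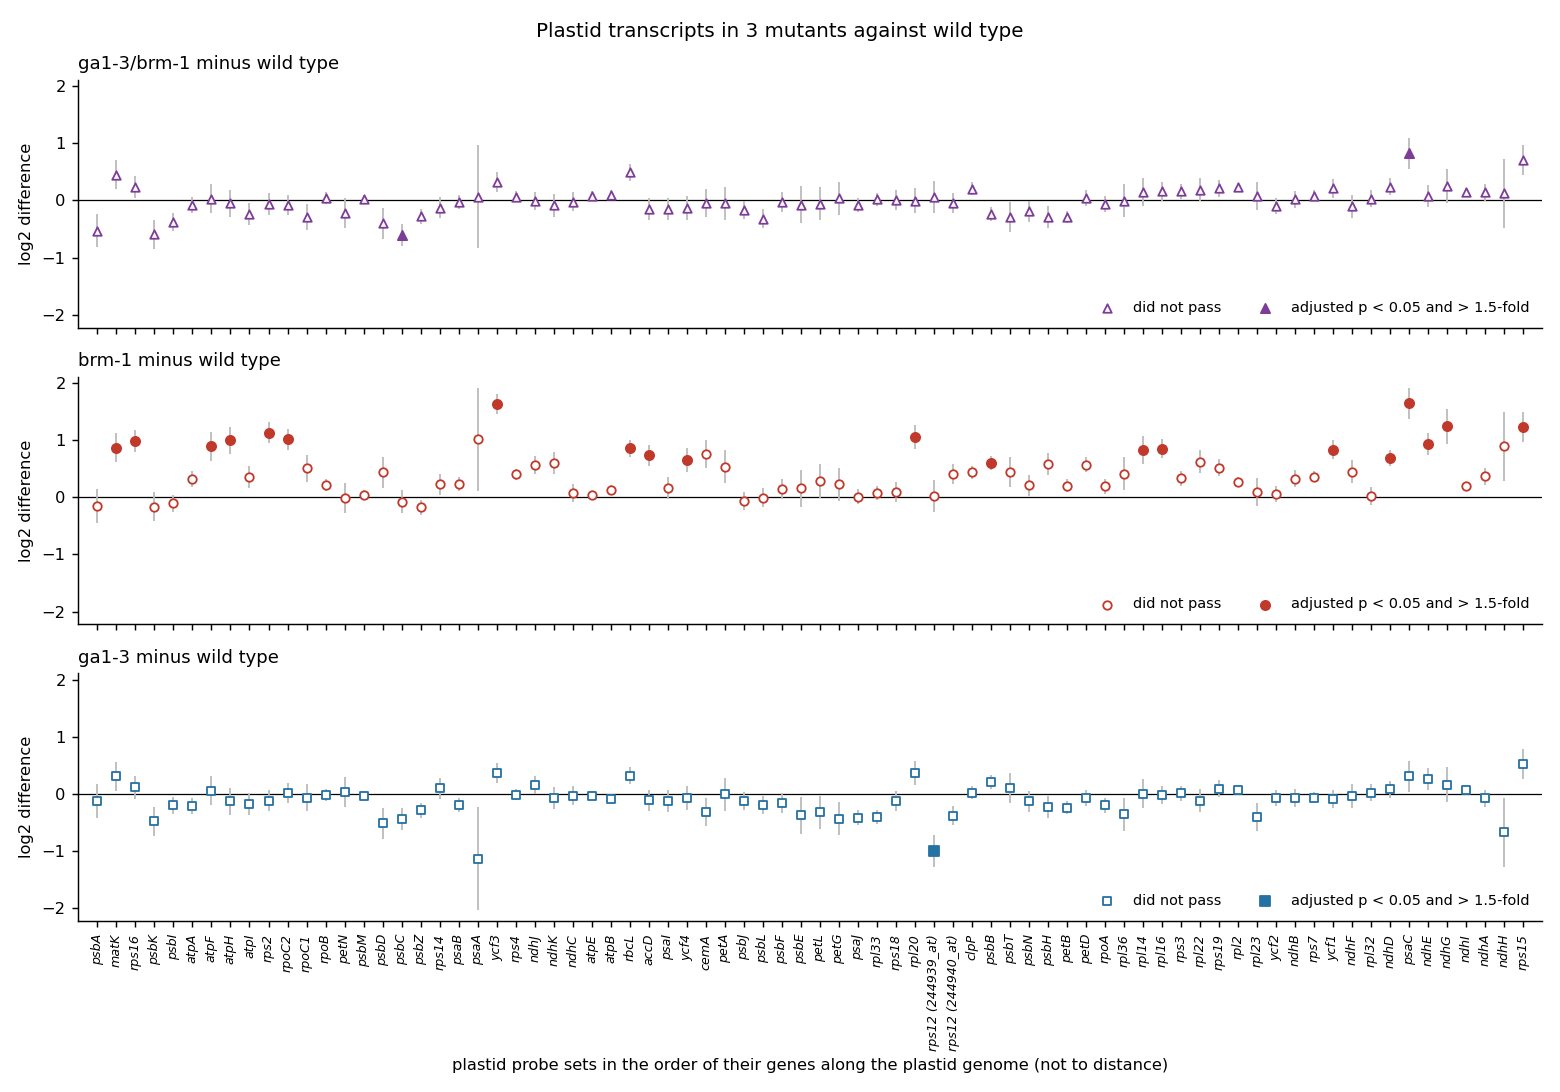
Log2 difference from wild type (vertical axis, with its standard error) of the 76 plastid probe sets, placed in the order of their genes along the plastid genome, for ga1-3/brm-1, brm-1 and ga1-3. Filled symbols passed an adjusted p of 0.05 and 1.5-fold: 20 probe sets, all higher, in brm-1, against 2 in ga1-3/brm-1 and 1 in ga1-3.

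The shift was seen on each array, although wild-type plants also differed among themselves. The median deviation of the plastid probe sets from their wild-type means was 0.47, 0.39 and 0.34 on the brm-1 arrays, against -0.20, 0.00 and 0.18 on the wild-type arrays. Plastid probe sets of one array thus moved together to some extent, and the 76 are not independent of each other. Without wild type replicate 1, the lowest of these arrays, 13 probe sets passed and the median difference was 0.30. This array also had a high 3′ to 5′ difference of the actin control, a sign of RNA quality, at 1.896, against 1.19 and 1.18 on the other wild-type arrays and 1.17, 1.10 and 1.42 in brm-1. Its part in the difference was not tested. Without brm-1 replicate 3, 18 passed.

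The largest differences were those of psaC and ycf3. PsaC carries the terminal iron-sulphur clusters of photosystem I, and Ycf3 is a photosystem I assembly factor. The ycf3 signal was 9.42, 9.51 and 9.25 in brm-1, against 7.44, 7.999 and 7.84 in wild type, a 3.11-fold increase (log2 1.63 ± 0.18, SE, adjusted p = 0.000169). All 3 brm-1 arrays were above every array of the other genotypes. For psaC the values were 7.49, 7.42 and 8.13 in brm-1, against 5.49, 6.50 and 6.13 in wild type, a 3.12-fold increase (log2 1.64 ± 0.27, adjusted p = 0.00193). The brm-1 and wild-type arrays did not overlap for psaC either, but the wild-type arrays spread over about 1 log2 unit.

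Most other photosystem and electron transport genes did not pass, as was so for most of all probe sets. Of the 26 photosystem and cytochrome b6f probe sets, 2 (7.69%) were called higher in brm-1, near the 7.09% of all probe sets. Of 5 photosystem I probe sets, psaC was the only one to pass. psaB, which encodes a core chlorophyll-binding subunit, was at 13.90 in each brm-1 array, against 13.55, 13.61 and 13.86 in wild type (log2 0.23 ± 0.12, adjusted p = 0.24). Its partner psaA gave 8.61, 8.49 and 8.41 in brm-1 and a scattered 6.21, 8.05 and 8.21 in wild type (log2 1.01 ± 0.90, adjusted p = 0.49). In both genes every brm-1 array lay above every wild-type array, but the difference did not pass. In photosystem II, 1 of 15 passed, and the class had a median log2 difference of 0.04. The gene that passed was psbB, encoding the core antenna protein CP47, with 9.16, 9.12 and 9.20 in brm-1, against 8.34, 8.73 and 8.60 in wild type (log2 0.60 ± 0.12, 1.52-fold, adjusted p = 0.00596). The reaction centre gene psbA (D1) gave a difference of -0.16 ± 0.29 and psbC (CP43) one of -0.08 ± 0.19, neither of which passed. The brightest photosystem II probe set, psbM, differed by 0.04 ± 0.08. None of the 6 cytochrome b6f probe sets passed, with a median of 0.25, petB differing by 0.20 ± 0.11 and petD, near background, by 0.57.

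Of the 24 ribosomal protein and RNA polymerase probe sets, 7 rose. All 20 ribosomal protein probe sets had a positive difference, with a median of 0.40, and 6 of them passed: rps15 (log2 1.23), rps2 (1.13), rpl20 (1.05), rps16 (0.98), rpl16 (0.85) and rpl14 (0.82). The rps2 values were 10.87, 11.10 and 10.80 in brm-1, against 9.51, 9.74 and 10.13 in wild type (2.19-fold, SE 0.19 on the log2 scale, adjusted p = 0.00194). For rpl20 the brm-1 arrays were nearly identical at 9.12, 9.12 and 9.14, against 8.04, 8.31 and 7.87 in wild type (2.08-fold, adjusted p = 0.00624). Of the 4 subunits of the plastid-encoded RNA polymerase, rpoC2 passed, with 8.85, 9.06 and 8.75 in brm-1, against 7.71, 7.79 and 8.14 in wild type (log2 1.01 ± 0.18, adjusted p = 0.00294). The differences of rpoC1 (0.50 ± 0.23, adjusted p = 0.15), rpoA (0.19 ± 0.13) and rpoB (0.21 ± 0.10, near background) did not.

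The NDH complex, the ATP synthase and Rubisco each had genes that rose. In the NDH complex, which returns electrons from the stroma to plastoquinone, all 11 differences were positive with a median of 0.57, and ndhG (1.24 ± 0.30), ndhE (0.94 ± 0.19) and ndhD (0.68 ± 0.15) passed. The near-background ndhF gave 0.45 ± 0.21, which did not. Of the 6 ATP synthase probe sets, atpH and atpF passed. The gene of the membrane ring subunit, atpH, gave 9.50, 9.43 and 9.18 in brm-1, against 7.82, 8.45 and 8.84 in wild type (log2 1.00 ± 0.24, adjusted p = 0.0136), and atpF, for a stalk subunit, differed by 0.89 ± 0.25. The catalytic subunit gene atpB was at 15.12, 15.11 and 15.19 in brm-1, against 14.91, 15.05 and 15.07 in wild type, a difference of 0.13 ± 0.08 that did not pass. The large subunit of Rubisco, rbcL, rose 1.81-fold, with 11.23, 11.12 and 10.91 in brm-1, against 10.15, 10.10 and 10.45 in wild type (log2 0.85 ± 0.15, adjusted p = 0.00257).

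Among the 8 remaining plastid genes, 5 passed, and the median difference was 0.74. Besides ycf3 these were matK (0.86 ± 0.26), which encodes an intron maturase, ycf1 (0.83 ± 0.16), accD (0.73 ± 0.19), for a subunit of acetyl-CoA carboxylase, and ycf4 (0.66 ± 0.21), for another photosystem I assembly factor. The protease gene clpP had an adjusted p of 0.0178 but a difference of only 0.44 ± 0.11, below the fold threshold. The calls for ycf4, rpl14, matK and atpF were the least stable, being lost in 9, 6, 5 and 4 of the 12 fits that each left out 1 array. Over all 20 plastid genes called in brm-1, 7 were lost in at least 1 of these fits.

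**Figure D2:**
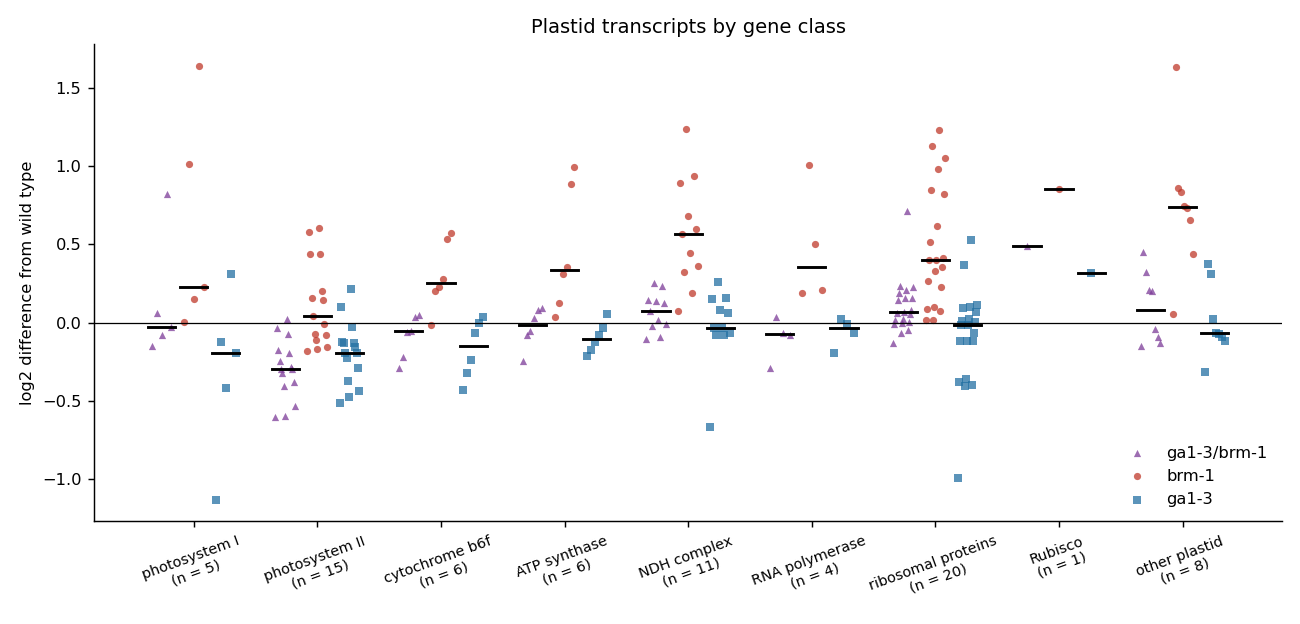
Log2 difference from wild type of each plastid probe set by gene class, for ga1-3/brm-1, brm-1 and ga1-3 (black bars are class medians, n is the number of probe sets). In brm-1 the medians lie between 0.04 for photosystem II and 0.74 for the remaining genes apart from the single Rubisco gene at 0.85, whereas those of the double mutant lie between -0.29 (photosystem II) and 0.08, with Rubisco at 0.49, and those of ga1-3 between -0.19 and -0.02, with Rubisco at 0.32.

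The size of the difference also went with the signal of the probe set. Of the 18 plastid probe sets with a wild-type signal below 8, 7 were called higher in brm-1 (median log2 difference 0.61), as were 8 of 14 between 8 and 10 (0.64), 4 of 16 between 10 and 12 (0.52), 1 of 10 between 12 and 13 (0.25) and 0 of 18 at 13 or above (0.20). Over all probe sets, 8.41%, 4.53%, 3.81%, 2.59% and 0.667% were called higher in these ranges, and the medians were 0.01, -0.02, 0.00, 0.03 and -0.09. Very bright probe sets of an array can respond to RNA amount less than in proportion, and the part of this in the pattern was not tested. Several of the called genes are neighbours in the plastid genome, as the plot in gene order shows. The genes atpF, atpH, rps2 and rpoC2 lie in 1 stretch with atpI (0.35, not passed), ndhD, psaC, ndhE and ndhG are adjacent, and so are rpl14 and rpl16. Next to the first 2 of these stretches, atpA gave 0.31 ± 0.14 and ndhI 0.19 ± 0.08, and neither passed.

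In ga1-3 a single plastid probe set passed. Here 0 of 76 probe sets were higher and 1 (1.32%) was lower, against 4.06% higher and 4.74% lower among all probe sets, and the median difference was -0.07. Single arrays turned the sign of this median, which was 0.03 without ga1-3 replicate 2, 0.01 without wild type replicate 3 and -0.17 without wild type replicate 1. At an unadjusted p under 0.05 there were 5, or 6.58%, against 28.5% of all probe sets. The gene called was one of 2 probe sets of rps12, a ribosomal protein gene whose messenger RNA is trans-spliced, with 7.23, 7.18 and 6.56 in ga1-3, against 7.49, 8.19 and 8.27 in wild type (log2 -0.99 ± 0.28, adjusted p = 0.0423). The call was lost in 8 of the 12 fits without 1 array. The values of ga1-3 replicate 3 were scattered for some genes, with psaA at 3.82, against 7.92 and 7.34 in the other ga1-3 arrays. The 3′ to 5′ difference of actin was 1.20 to 1.497 in ga1-3/brm-1, 1.10 to 1.42 in brm-1, 1.20 to 2.16 in ga1-3 and 1.18 to 1.896 in wild type, with its highest value on ga1-3 replicate 3, and its part in these values was not tested.

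The next question was whether loss of BRM acted in the same way without functional GA1. This was not a contrast of GA present against GA absent. The paper reports reduced active GA in soil-grown plants of another brm null allele, and a low remaining level in the GA biosynthesis mutant. Imbibition of seeds in GA went with the ga1-3 background, so its part cannot be separated from that of GA1. In ga1-3/brm-1 the plastid probe sets were near their wild-type level. Compared with wild type, 1 was higher and 1 was lower, together 2.63%, against 23.6% of all probe sets changed in either direction, and the median was -0.01. The gene called higher was psaC again, at 6.97, 6.74 and 6.88 in ga1-3/brm-1, against 5.49, 6.50 and 6.13 in wild type (log2 0.82 ± 0.27, adjusted p = 0.0356). The gene called lower was psbC, at 11.10, 11.25 and 10.88 in ga1-3/brm-1, against 11.32, 11.87 and 11.86 in wild type (log2 -0.60 ± 0.19, adjusted p = 0.0317). The 3 mutants were all compared with the same wild-type arrays. Both calls were lost in several fits without 1 array, psaC in 5 and psbC in 4 of 12. In photosystem II as a whole 14 of 15 differences were negative, with a median of -0.29, against 8786 of 16764 over all probe sets. In ga1-3, 13 of these 15 were also negative, with a median of -0.19. The psbA difference in ga1-3/brm-1 was -0.53 ± 0.29, which did not pass.

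**Figure D3:**
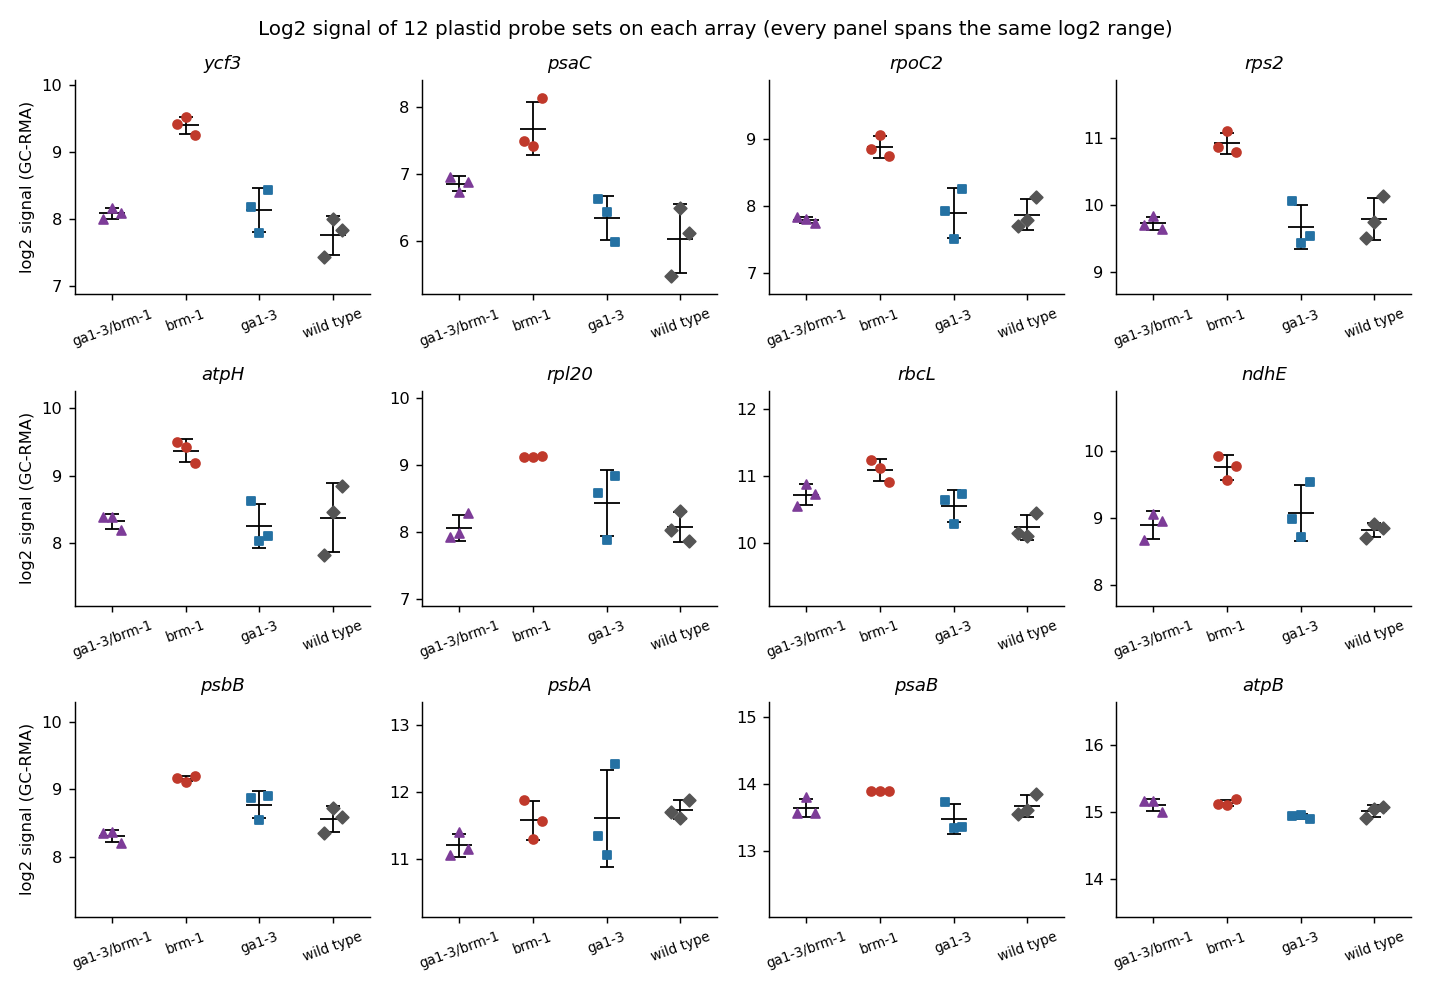
Log2 signal of 12 plastid probe sets on each array (points) with the mean and SD of the 3 arrays of each genotype (black), in ga1-3/brm-1, brm-1, ga1-3 and wild type. In 9 of the panels, ycf3 to psbB, the brm-1 arrays are above those of wild type and the difference passed. In psaB and atpB the brm-1 arrays are also above, by little, and neither of these nor psbA passed.

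Set against its own single-mutant parent ga1-3, the double mutant had 1 plastid probe set higher and 0 lower, against 10.8% higher and 10.1% lower among all probe sets. The one called was the same rps12 probe set, at 8.11, 8.45 and 7.55 in ga1-3/brm-1, against 7.23, 7.18 and 6.56 in ga1-3 (log2 1.05 ± 0.28, adjusted p = 0.0164). Its ga1-3 arrays are those that were low against wild type. None of the 20 genes called higher in brm-1 was called here, and the log2 difference was positive in only 12 of them. Their median difference was 0.08 for ga1-3/brm-1 against ga1-3, a comparison that shares no array with brm-1 against wild type, where their median was 0.91 as a result of the selection.

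**Figure D4:**
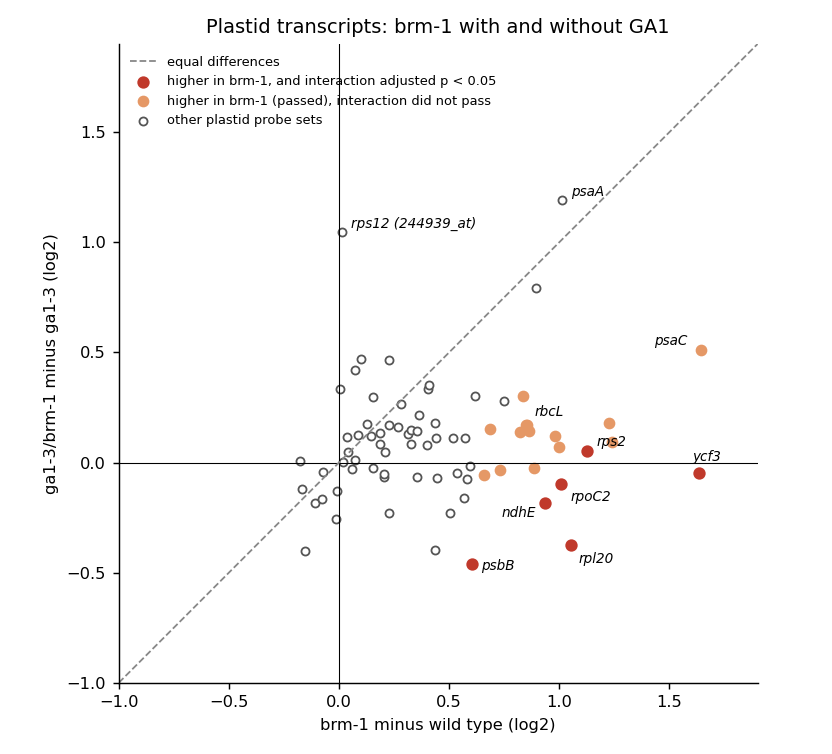
Effect of brm-1 on the 76 plastid probe sets with functional GA1 (horizontal axis, log2 brm-1 minus wild type) and in the ga1-3 background (vertical axis, log2 ga1-3/brm-1 minus ga1-3). The 20 filled points, called higher in brm-1, lie to the right. On the vertical axis they scatter on both sides of 0 (median 0.08, 12 of them positive, psbB lowest at -0.46). The 6 in dark red had an interaction at an adjusted p under 0.05.

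Set against brm-1, the double mutant was lower. Of the 76 plastid probe sets, 16 (21.1%) were called lower and 0 higher, against 3.78% lower and 4.98% higher among all probe sets. The difference was negative in 73 of 76, and in 54 the 3 ga1-3/brm-1 arrays were all below those of brm-1, which was so for 19.0% of all probe sets. The 16 included 13 of the 20 genes called higher in brm-1, together with rpoC1 (-0.79 ± 0.23), ndhK (-0.69 ± 0.19) and psbH (-0.88 ± 0.19), the last for a small photosystem II subunit. For ycf3 the signal was 8.003, 8.17 and 8.09 in ga1-3/brm-1, against 9.42, 9.51 and 9.25 in brm-1 (log2 -1.31 ± 0.18, adjusted p = 0.00169). This comparison uses the same brm-1 arrays as the one against wild type, so the 2 counts are not independent. It also depended on single arrays, with 6 calls without brm-1 replicate 1, 10 without brm-1 replicate 2, 7 without ga1-3/brm-1 replicate 3 and 10 without ga1-3/brm-1 replicate 1.

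The interaction of both mutations, which asks directly whether the brm-1 effect differed with GA1, was negative in 62 of 76 plastid probe sets and passed an adjusted p of 0.05 in 6, all negative, against 8.90% of all probe sets, 4.48% with a negative sign. These were ycf3 (log2 -1.68 ± 0.25, adjusted p = 0.00489), rpl20 (-1.43 ± 0.30, adjusted p = 0.0204), ndhE (-1.12 ± 0.27, adjusted p = 0.0328), rpoC2 (-1.11 ± 0.25, adjusted p = 0.0261), rps2 (-1.08 ± 0.26, adjusted p = 0.0327) and psbB (-1.07 ± 0.17, adjusted p = 0.00714). In psbB the double mutant lay below both parents, at 8.36, 8.37 and 8.21 in ga1-3/brm-1, against 9.16, 9.12 and 9.20 in brm-1 and 8.87, 8.54 and 8.91 in ga1-3. The interactions of ycf3 and psbB passed in all 12 fits without 1 array. That of rpl20 was lost in 2 of them, and those of rps2, rpoC2 and ndhE in 7 each. The share of 6 in 76 was near that of all probe sets, so the count in itself does not set the plastid genes apart. For psaC (-1.13 ± 0.38, adjusted p = 0.095), rbcL (-0.68 ± 0.21, adjusted p = 0.07) and the other genes raised in brm-1, the interaction did not pass. A high value in brm-1, by which the 20 were chosen, enters the interaction with a negative sign, so its sign in them shows nothing further.

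The mitochondrial probe sets were centred near 0 in every mutant. Of the 30 probe sets named by the platform table, 0 were higher and 1 was lower in brm-1, against 7.09% and 7.58% of all probe sets, and the median difference was 0.01. The one called was cox3, a cytochrome c oxidase subunit gene that has a copy in the nuclear genome, at 2.38, 2.47 and 2.26 in brm-1, against 3.33, 2.82 and 2.79 in wild type (log2 -0.61 ± 0.18, adjusted p = 0.0366). These signals are near background, and the call was lost in 7 of the 12 fits without 1 array.

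In ga1-3 none of the 30 passed the limma test, against 4.06% higher and 4.74% lower among all probe sets, and 1 had an unadjusted p under 0.05, against 28.5% of all. The median was 0.03. In ga1-3/brm-1, 2 were higher than in wild type and 0 lower, against 23.6% of all probe sets changed in either direction, with a median of 0.01. Both belong to the cytochrome c maturation machinery, which attaches haem to c-type cytochromes. The ccb382 signal was 7.84, 7.70 and 7.99 in ga1-3/brm-1, against 7.06, 7.40 and 7.19 in wild type (log2 0.63 ± 0.15, adjusted p = 0.00713), and it was also higher than the 7.40, 7.14 and 6.98 in ga1-3 (0.67 ± 0.15, adjusted p = 0.00591). In brm-1 it was 7.72, 8.01 and 7.59, a difference of 0.56 ± 0.15 with an adjusted p of 0.0219 that fell just short of 1.5-fold. The study's tables give this probe set a nuclear locus instead. The ccb452 signal was 7.11, 6.96 and 7.30 in ga1-3/brm-1, against 6.69, 6.45 and 6.36 in wild type (0.62 ± 0.20, adjusted p = 0.0313), a call lost in 4 of 12 fits. Another gene of this group, ccb206, was near background, with a difference of 0.19 ± 0.15 in ga1-3/brm-1.

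Among the 30 probe sets named by the platform table, cox3 was the only respiratory chain or ATP synthase gene to pass in any mutant against wild type. The brightest mitochondrial probe set, that of the ATP synthase subunit gene atp9, gave 9.82, 9.65 and 9.78 in ga1-3/brm-1, 9.43, 9.64 and 9.64 in brm-1, 9.53, 9.43 and 9.68 in ga1-3 and 9.83, 9.86 and 9.72 in wild type. The single mutants differed from wild type by -0.24 ± 0.10 in brm-1 and -0.26 ± 0.10 in ga1-3, which did not pass. In brm-1, atp1 differed from wild type by 0.12 ± 0.13, cob, of complex III, by 0.05 ± 0.12, and cox1 and cox2, of complex IV, by -0.19 ± 0.24 and -0.19 ± 0.11. Of the 14 complex I probe sets none passed, and their median differences were -0.03 in ga1-3/brm-1, -0.01 in brm-1 and 0.11 in ga1-3. The 2 probe sets of nad5 differed by 0.16 ± 0.14 and 0.24 ± 0.19 in brm-1. In nad4, another of these genes, ga1-3 replicate 3 stood out with 7.55, against 6.43 and 6.42 in the other ga1-3 arrays. None of the 6 ribosomal protein probe sets passed, the brightest, rps3/rpl16, differing by 0.09 ± 0.28 in brm-1. Neither the interaction nor ga1-3/brm-1 against brm-1 gave a mitochondrial call, against 8.90% of all probe sets for the interaction, and 3.78% lower and 4.98% higher for the comparison. At an unadjusted p under 0.05 there were 2 in each, against 25.4% and 29.3% of all probe sets. By the platform table, 11 of the 30 are shared with a nuclear locus on chromosome 2, where a copy of the mitochondrial genome is inserted. Transcripts of the 2 compartments cannot be told apart there. These 11 do not include ccb382, to which the study's tables give a nuclear locus, and the other probe sets were not checked for such copies.

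**Figure D5:**
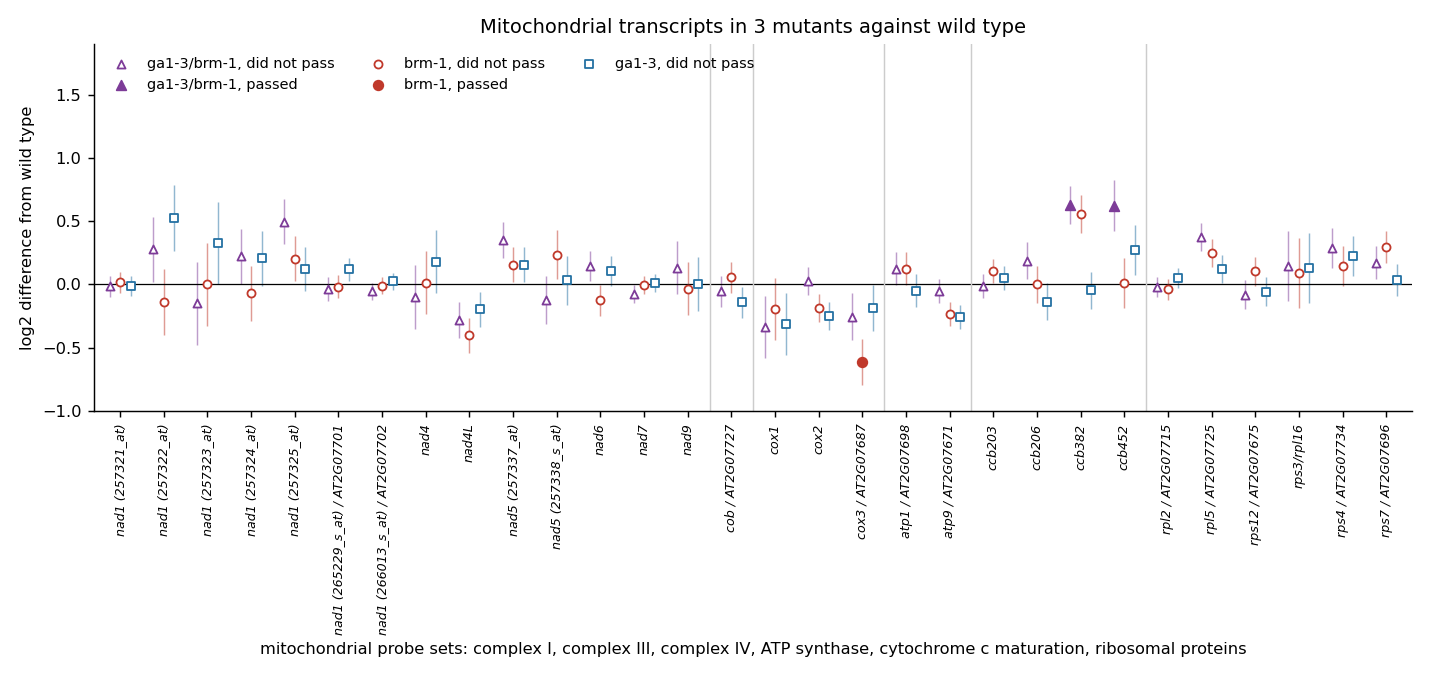
Log2 difference from wild type with its standard error of the 30 mitochondrial probe sets named by the platform table, by complex, for ga1-3/brm-1, brm-1 and ga1-3. Filled symbols passed: cox3 (-0.61) in brm-1, and ccb382 (0.63) and ccb452 (0.62) in ga1-3/brm-1.

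The 2 mitochondrial loci known only from the study's tables, ATMG00640 and ATMG00660, were listed there because of their response, and their values are a description. ATMG00640 gave 3.29, 2.85 and 3.00 in ga1-3/brm-1, 2.86, 2.98 and 3.27 in brm-1, 3.66, 3.21 and 3.44 in ga1-3 and 4.08, 3.85 and 3.47 in wild type. Its mean was near background in every genotype. ATMG00660 gave 5.72, 5.85 and 5.61 in ga1-3/brm-1, 5.54, 5.59 and 5.67 in brm-1, 6.29, 6.16 and 6.85 in ga1-3 and 6.47, 6.29 and 6.18 in wild type. In both, the arrays of the brm-1 genotypes lay below those of wild type, by -0.75 and -0.59 in ga1-3/brm-1 and by -0.77 and -0.72 in brm-1 on the log2 scale.

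Organelle transcription depends on nuclear genes, of which a list of 32 was examined. Values here are differences from wild type that passed, unless stated otherwise. Only 9 had a name, 8 of them solely through the study's tables, so the direction of those 8 is not independent evidence. The sigma factor gene SIG5, which directs the plastid-encoded polymerase to promoters, was lower by -1.87 in ga1-3/brm-1, -1.39 in brm-1 and -0.69 in ga1-3 (log2, against wild type). Its mean was near background in ga1-3/brm-1 (3.83) and brm-1 (4.31), against 5.70 in wild type. SIG1 was lower in ga1-3/brm-1 (-0.59) and ga1-3 (-0.66) but differed by only -0.10 in brm-1, and SIG6 was higher in ga1-3/brm-1 (0.59). The iron superoxide dismutase genes FSD2 and FSD3, whose products associate with the plastid transcription machinery, were higher in ga1-3/brm-1 (0.66 and 1.25) and in brm-1 (0.73 and 0.59). HCF107, needed for the psbH transcript, was lower in each mutant, by -2.08 in ga1-3/brm-1, -1.10 in brm-1 and -0.83 in ga1-3. The psbH signal itself was 10.49, 10.36 and 10.14 in ga1-3/brm-1, 11.21, 11.36 and 11.05 in brm-1, 10.76, 10.40 and 10.05 in ga1-3 and 10.42, 10.51 and 10.95 in wild type. For the mitochondrion, the phage-type polymerase gene RPOTM was lower in ga1-3 (-0.89). In ga1-3/brm-1, RPOTM was higher than in ga1-3 (0.97) and than in brm-1 (0.65), and its interaction (1.54) passed. MTPNP, for a mitochondrial RNA-degrading enzyme, was higher in ga1-3/brm-1 (1.14), where its mean was still near background at 3.92, against 2.78 in wild type. CRR2, an RNA-processing factor of the NDH complex, differed by 0.58 in ga1-3/brm-1, under the fold threshold. It did pass in ga1-3/brm-1 against ga1-3 (0.75) and in the interaction (0.52).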

How the data were processed

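Total RNA of shoots, treated with DNase, was labelled with a 3′ IVT kit and hybridised to ATH1 arrays, 12 in all. The deposited values are log2 signals that the authors computed with GC-RMA in Partek (versions not given in the sources used here) and limited to probe sets called present by MAS5, 16824 in number. The 60 control probe sets were left out of tests. A genotype-only model was fitted with limma 3.58.1 in R 4.3.3 to all 12 arrays and 16764 probe sets, with Benjamini-Hochberg adjustment over all of them. A call needed an adjusted p under 0.05 and a change over 1.5-fold, and the interaction an adjusted p alone. The study's second ANOVA factor is not named and was not in the model. The fit was tested on simulated data. Names came from the platform annotation (9267 probe sets with 1 gene, 358 with several, 7139 with none), the study's tables and RefSeq (TAIR10.1). Sequences and coordinates were not used here.

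Genes named were those that passed in any comparison or the interaction, the brightest wild-type member of each class, and a set of well-known genes, each by a rule; other genes came from lists of nuclear genes and tissue markers. The members and lists were chosen with earlier results of these data known. Alternatives were quantile normalization, median centring, an intensity trend, no fold threshold, an ordinary variance, a fit on 2 genotypes alone, a replicate block, a 2-level array factor and each array left out. The number of arrays limits the precision, and signals carry no count of molecules. Same-numbered arrays did not deviate together, with correlations between -0.198 and 0.119. Figures were drawn with matplotlib 3.10.9.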

Additional observations from a re-analysis of the deposited data

Results flagged for a closer look

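In 6 plastid genes the effect of brm-1 differed between plants with and without functional GA1, by the interaction in the limma fit. Imbibition of seeds in GA went with the ga1-3 background and cannot be separated from GA1 here. The log2 interaction was -1.68 for ycf3, -1.43 for rpl20, -1.12 for ndhE, -1.11 for rpoC2, -1.08 for rps2 and -1.07 for psbB. In each, brm-1 exceeded wild type by 0.60 to 1.63, whereas ga1-3/brm-1 differed from ga1-3 by -0.46 to 0.05. The share, 6 of 76 plastid probe sets, was near the 8.90% of all probe sets, so it does not set plastid genes apart. The calls of rps2, rpoC2 and ndhE were lost in 7 of the 12 fits without 1 array and that of rpl20 in 2, whereas those of ycf3 and psbB passed in all 12.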

How the results depend on the processing

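Quantile normalization, median centring and an intensity trend left the number of plastid probe sets changed in brm-1 against wild type between 20 and 23. It was 16 with an ordinary variance, 18 with the arrays of 2 genotypes only, 18 with the array factor and 27 without the fold threshold. With an ordinary variance, calls numbered 10 for plastid ga1-3/brm-1 against brm-1, 3 for the plastid interaction, 0 for plastid ga1-3/brm-1 and ga1-3 against wild type, 1 for mitochondrial ga1-3/brm-1 and 0 for mitochondrial brm-1 against wild type. With the arrays of 2 genotypes only, plastid ga1-3/brm-1 gave 3, and plastid ga1-3 and mitochondrial brm-1 against wild type gave 0. Without the fold threshold there were 2, 4 and 3 plastid calls for ga1-3 and ga1-3/brm-1 against wild type and for ga1-3/brm-1 against ga1-3, and 4 and 2 mitochondrial calls for ga1-3/brm-1 and brm-1 against wild type. With the array factor the plastid interaction gave 10 calls, mitochondrial ga1-3/brm-1 gave 3 and mitochondrial brm-1 gave 0. An intensity trend gave 3 for plastid ga1-3/brm-1 against wild type. Quantile normalization moved the mitochondrial median in ga1-3/brm-1 to -0.014.

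Same-numbered arrays correlated between -0.198 and 0.119 in their deviations (18 pairs, 1 above 0.1). The labels do not say whether they shared a sowing, harvest or hybridisation, and this was not tested. With the replicate block there were 17 plastid calls in brm-1, 11 in ga1-3/brm-1 against brm-1, 4 interactions, 0 plastid calls in ga1-3/brm-1 and 0 mitochondrial calls in brm-1 against wild type.

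With each array left out in turn, plastid calls ranged from 13 to 25 in brm-1, 0 to 1 in ga1-3 and 0 to 3 in ga1-3/brm-1 against wild type, 0 to 2 in ga1-3/brm-1 against ga1-3, 6 to 20 in ga1-3/brm-1 against brm-1 and 2 to 9 for the interaction. The interaction gave 2 calls without ga1-3 replicate 1, and 3 each without brm-1 replicate 1, ga1-3/brm-1 replicate 3 and wild type replicates 1 and 2. Mitochondrial calls ranged from 0 to 1 in brm-1 and 0 to 3 in ga1-3/brm-1 against wild type, 0 to 1 in ga1-3/brm-1 against ga1-3, 0 to 1 in ga1-3/brm-1 against brm-1 and 0 to 1 for the interaction. Without brm-1 replicate 3, and also without wild type replicate 2, the 1 mitochondrial call in brm-1 was higher than wild type and was not that of cox3. Plastid medians lay between 0.2952 and 0.4932 in brm-1, -0.1697 and 0.0341 in ga1-3 and -0.104 and 0.092 in ga1-3/brm-1. Mitochondrial medians lay between -0.0051 and 0.0271 in brm-1, -0.0323 and 0.1108 in ga1-3 and -0.011 and 0.0399 in ga1-3/brm-1. Signals near background limit 14 of the 30 mitochondrial and 6 of the 76 plastid probe sets. The cause of these changes was not tested.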
